A study of Mus musculus with 2 samples.

Results

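The Mir26 family comprises 3 hairpin genes in the mouse, Mir26b, Mir26a-1 and Mir26a-2, each carried in an intron of a Ctdsp gene. The members were taken by matching gene identifiers, without their version, to GENCODE symbols, and all 3 were among the 1973 miRNA genes listed in the files. Small RNA was sequenced from limb of B6NCrl mouse embryos at embryonic day 11.5, in 1 group of 2 libraries. Replicate 1 pooled limbs of 109 healthy embryos and replicate 2 those of 88, males and females together, with no allele or treatment named. The labels give both libraries 1 donor identifier without explaining it. The spread between the libraries may therefore be partly technical.

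MicroRNAs are cut from hairpin precursors into a 5p and a 3p arm, and the loaded arm pairs with messenger RNAs mainly through its seed, bases 2 to 8. The miR-26 family is conserved across vertebrates, is present in many tissues and is known for repressing the histone methyltransferase gene Ezh2, including in mouse muscle cells. Its host genes Ctdsp1, Ctdspl and Ctdsp2 encode small phosphatases that act on the C-terminal domain of RNA polymerase II, and in zebrafish miR-26b represses ctdsp2, a host gene of the family.

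The mature arms decide which counts can be told apart, so they are shown first. The sequences are RefSeq's, on build GRCm38.p6, 5′ to 3′, with the seed in capitals. The 5p arm of Mir26b differs from that of the Mir26a genes by C11U and C21U, given as the miR-26a base, the position from the 5′ end of the arm and the miR-26b base. It is 21 nt long, against 22 nt for miR-26a-5p.
miR-26b-5p: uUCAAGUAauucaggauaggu
miR-26a-5p (Mir26a-1 and Mir26a-2): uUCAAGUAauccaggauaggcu
miR-26b-3p: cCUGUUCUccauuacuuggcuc
miR-26a-1-3p: cCUAUUCUugguuacuugcacg
miR-26a-2-3p: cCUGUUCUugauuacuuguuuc

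The 5p seed was the same in the 3 members, and no other gene in the RefSeq table held it. The 5p arm of Mir26a-1 was identical to that of Mir26a-2 over all 22 nt. The 3p arms differed more. Those of Mir26a-1 and Mir26a-2 differed at 6 of 22 positions, those of Mir26a-1 and Mir26b at 8, and those of Mir26a-2 and Mir26b at 4. Mir26b and Mir26a-2 shared a 3p seed, and Mir26a-1 had another by A4G.

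The hairpins below are also RefSeq's, and here the capitals mark both mature arms.
Mir26b: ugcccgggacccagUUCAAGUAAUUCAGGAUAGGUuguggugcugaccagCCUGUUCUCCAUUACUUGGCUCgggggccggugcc
Mir26a-1: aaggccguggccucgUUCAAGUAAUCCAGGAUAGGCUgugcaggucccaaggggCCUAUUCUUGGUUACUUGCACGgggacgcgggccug
Mir26a-2: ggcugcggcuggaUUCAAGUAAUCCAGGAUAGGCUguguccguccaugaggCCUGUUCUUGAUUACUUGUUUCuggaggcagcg

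The longest run of bases that the Mir26a hairpins have in common was 25 nt. It begins at the first base of the 5p arm and goes 3 bases past its end. A read of the 5p arm that adds up to 3 bases at its 3′ end therefore fits both copies, whereas a read that starts 1 base earlier fits only 1 of them. Of the 69 windows of 22 nt in the Mir26a-1 hairpin, 4 also occur in Mir26a-2. Mir26b shared no such window with either copy; its longest run in common was 11 nt with Mir26a-1 and 10 nt with Mir26a-2. No stretch of 20 nt in the Mir26b hairpin recurred in another hairpin among the 1894 listed genes with a GENCODE sequence.

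The 3 loci lie on different chromosomes, all on the plus strand, and each hairpin is transcribed in the direction of its host. Mir26b (ENSMUSG00000065468.1) is at chr1:74394310-74394394 on mm10, in intron 4 of 6 of Ctdsp1, an intron of 564 nt. Mir26a-1 (ENSMUSG00000065513.1) is at chr9:119031796-119031885, in intron 5 of 7 of Ctdspl, which is 3283 nt long. Mir26a-2 (ENSMUSG00000065430.1) is at chr10:126995530-126995613, in intron 5 of 7 of Ctdsp2, 1946 nt long. Intron numbers refer to the longest coding transcript in GENCODE M21. In 2 of the 4 annotated Ctdsp2 transcripts an exon overlaps Mir26a-2 by 1 nt. The host genes span 5777 nt for Ctdsp1, 117546 nt for Ctdspl and 21259 nt for Ctdsp2. Host messenger RNA was not measured by this assay.

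**Figure D1:**
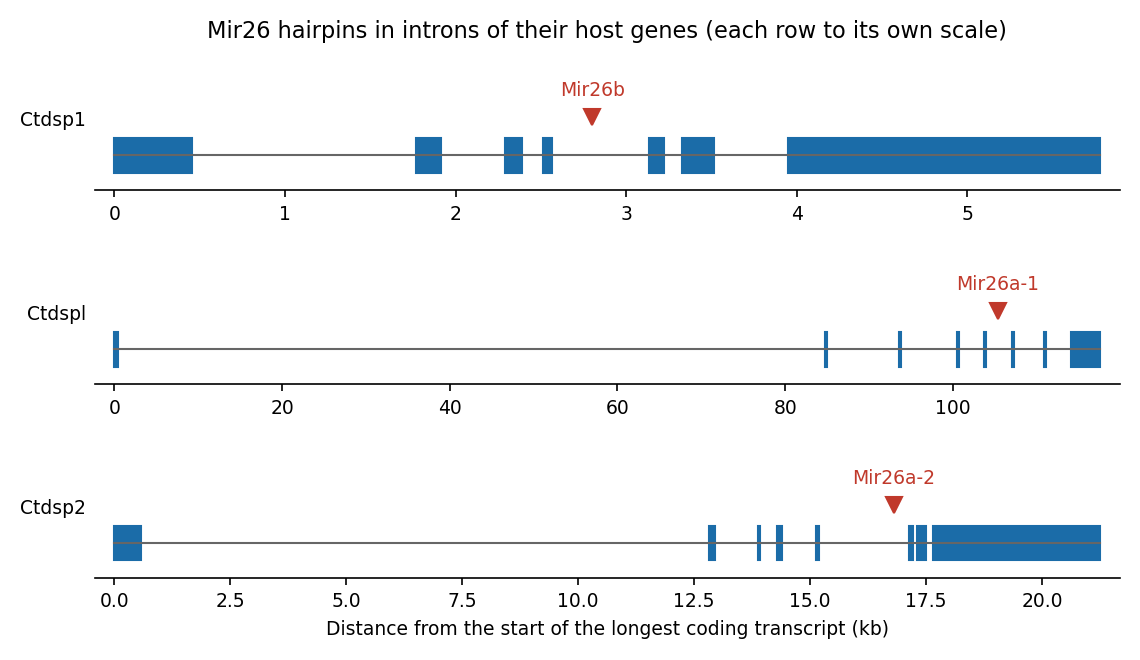
Position of the Mir26 hairpins (triangles) among the exons (boxes) of the longest coding transcript of each host gene, with distance from the transcript start in kb on the horizontal axis and a scale of its own for each row. Mir26b lies in intron 4 of Ctdsp1 and each Mir26a hairpin in intron 5 of its host.

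The deposited values are raw read counts per hairpin gene, in which the arms of a gene are added together. Sense counts of all listed genes summed to 2953085 in replicate 1 and 3459176 in replicate 2, and levels below are counts scaled to a library total of 1000000 (CPM). Reads that fitted several places stand on a line of their own, with 1644176 reads in replicate 1 and 1738400 in replicate 2, or 24.7% and 23.4% of the sum of all lines in each file. How the counting treated them at the gene lines is not given in the sources used here, and the files do not record which genes they fit. A count of 0 allows up to 1.02 CPM in replicate 1 and 0.867 CPM in replicate 2. These limits and the intervals below cover counting error only, since reads copied by PCR are not independent molecules. The limb mesenchyme and cartilage markers Mir140, Mir455, Mir214, Mir196b and Mir10b were all detected, with summed levels of 163990 and 156798 CPM in replicates 1 and 2. The genes contributed unequally. In replicate 1 Mir196b had 72172 CPM, Mir214 40112 CPM and Mir10b 35771 CPM, against 14609 CPM for Mir140 and 1326 CPM for Mir455. Markers of other limb cells were detected too: the endothelial Mir126a had 24254 and 24135 CPM, and 3 epithelial markers summed to 9021 and 10666 CPM. White blood cell markers summed to 656 and 720 CPM, erythroid ones to 367 and 481 CPM, and the muscle marker Mir206 had 529 and 552 CPM. The hepatocyte marker Mir122 and the heart markers summed to at most 21.7 CPM each. The 3 neuronal Mir124a hairpins had no sense count, although they are copies, so their 0 sets no limit on the mature miRNA.

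Mir26b was an abundant limb miRNA, and both Mir26a copies had few counts. Mir26b had 50323 counts in replicate 1 and 56880 in replicate 2, or 17041 and 16443 CPM. It held 1.70% of the sense counts in replicate 1 (Wilson 95% interval 1.69 to 1.72%) and 1.64% in replicate 2 (1.63 to 1.66%), and ranked 14 and 15 among the listed genes. Its mean was 16742 ± 423 CPM (SD, n = 2). In bulk tissue the number of cells that hold a miRNA and the amount per cell cannot be told apart.

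Mir26a-2 had 117 counts in replicate 1 and 131 in replicate 2, which is 39.6 and 37.9 CPM (38.7 ± 1.2, SD, n = 2). Mir26a-1 had 38 and 48 counts, which is 12.9 and 13.9 CPM (13.4 ± 0.71, SD, n = 2). The order Mir26b, Mir26a-2, Mir26a-1 was the same in both libraries, and the values of the 3 genes did not overlap. Each gene passed the detection level used here, 10 CPM in both libraries. For Mir26a-1 the Wilson interval went down to 9.38 CPM in replicate 1, so that its place above this level was within counting error. None of the 3 genes had a count on the opposite strand in either library.

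Within each library Mir26b exceeded the summed Mir26a copies by 8.32 ± 0.02 log2 units (SD, n = 2), a ratio of 320.2-fold. The exact 95% interval from counting was 8.12 to 8.58 in replicate 1 and 8.10 to 8.53 in replicate 2, wider than the spread between the libraries. Against the copies one by one, Mir26b was 10.27 ± 0.11 log2 units above Mir26a-1 and 8.75 ± 0.01 above Mir26a-2. Mir26b thus supplied 99.7% of the 50478 family counts in replicate 1 and of the 57059 in replicate 2. No test was made of these ratios, because an exact sign-flip test over 2 libraries cannot go below p = 0.5. They are ratios of assigned counts: reads of the identical 5p arm fit both Mir26a hairpins, and a count of either copy sets no level for mature miR-26a-5p.

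The Mir26a counts were split unevenly between the copies. Mir26a-1 took 38 of 155 counts in replicate 1, or 24.5% (Wilson 95% interval 18.4 to 31.9%), and 48 of 179 in replicate 2, or 26.8% (20.9 to 33.7%). Its log2 ratio to Mir26a-2 was −1.52 ± 0.12 (SD, n = 2), with exact 95% intervals from counting of −2.19 to −1.08 in replicate 1 and −1.96 to −0.96 in replicate 2. Both intervals lay below 0. The files do not say whether these reads come from the 3p arms, which differ between the copies, from longer pieces of the 5p side or from the loop.

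**Figure D2:**
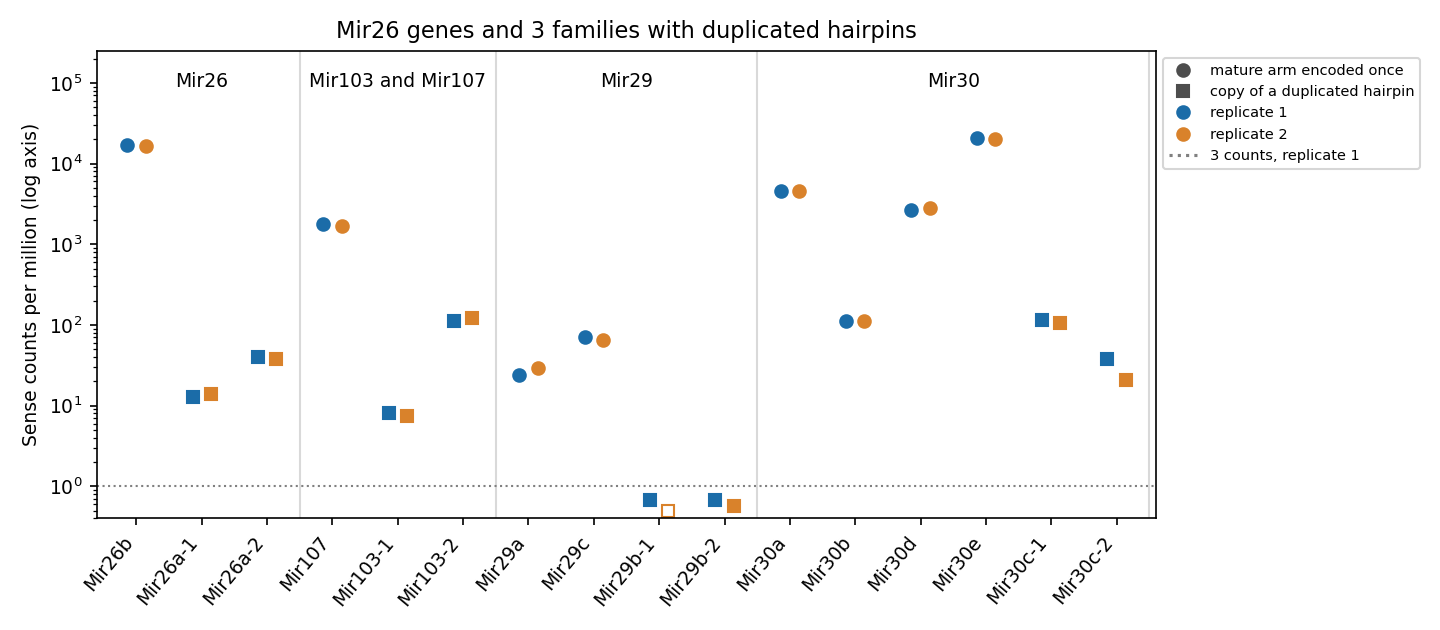
Sense counts scaled to a library total of 1000000 (CPM), on a log axis, for each gene of the Mir26, Mir103 and Mir107, Mir29 and Mir30 families, with 1 point per library (left, replicate 1; right, replicate 2). Circles mark genes taken as having a mature arm encoded once, and squares mark duplicated hairpins. For Mir30b and Mir30d no mature arm was matched in RefSeq. The dotted line is the level of 3 counts in replicate 1, and the open square is a count of 0 drawn at 0.5. Mir26b stands at 17041 and 16443, whereas the Mir26a copies stand between 12.9 and 39.6.

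The same arrangement, 1 mature arm encoded by a pair of hairpins beside a relative with its own arm, occurs in other families, and 3 of them were set beside Mir26. In the Mir103 and Mir107 family, carried in genes of pantothenate kinases, which start coenzyme A synthesis, Mir107 had 1777 and 1693 CPM in replicates 1 and 2. Mir103-2 had 113 and 121 CPM and Mir103-1 had 8.13 and 7.52 CPM, and Mir107 stood 3.80 ± 0.11 log2 units above their sum (SD, n = 2). This ratio was smaller than the 8.32 ± 0.02 of Mir26, with counting intervals that did not overlap in either library. The relation of Mir107 to its relatives also differs in sequence: its 3p arm differs from the shared one by G22C alone, and 24 nt of its hairpin occur in each Mir103 hairpin, against at most 11 nt between Mir26b and a Mir26a hairpin.

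In the Mir30 family, Mir30e had 20576 and 20181 CPM in replicates 1 and 2, the level closest above Mir26b. It exceeded the summed Mir30c copies by 7.20 ± 0.19 log2 units (SD, n = 2), again less than in Mir26, with counting intervals of 6.93 to 7.20 in replicate 1 and 7.20 to 7.48 in replicate 2. Mir30a was 5.03 ± 0.21 log2 units above the copies and Mir30d 4.31 ± 0.27. Mir30b was not above them, at −0.31 ± 0.23, with 111 and 113 CPM. Mir30c-1 had 116 and 104 CPM and Mir30c-2 had 37.6 and 20.5 CPM. The highest level of a copy in these families was 121 CPM, for Mir103-2 in replicate 2, and not every gene taken as encoded once was abundant. For Mir30b and Mir30d no mature arm was matched in RefSeq, so that label rests on the family list alone.

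The Mir29 genes, known for repressing collagen genes, were scarce altogether. Mir29a had 70 and 101 counts and Mir29c had 210 and 228, against 2 and 0 for Mir29b-1 and 2 and 2 for Mir29b-2 in replicates 1 and 2. The log2 ratio of Mir29a to the summed copies had an exact 95% interval from 2.71 to 6.04 in replicate 1 and from 3.77 to 8.72 in replicate 2. The Mir26 ratio was above this interval in replicate 1 and inside it in replicate 2, so at this depth the families could not be separated in both libraries.

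Over the whole table, 916 listed genes had a mature arm in RefSeq. In 50 of them 1 arm was identical to an arm of another listed gene, in 31 every arm was, and in 835 none was. Both Mir26a genes belong to the first class and Mir26b to the last. Of the 50 genes with 1 shared arm, 31 were detected, and their median was 66.6 ± 0.16 CPM over the libraries (SD, n = 2). Mir26a-2 ranked 25 and Mir26a-1 ranked 31 of these 31, the lowest of the detected genes of the class. A further 19 genes of the class were below Mir26a-1, 6 of them with no sense count. Values within the class ranged widely: 6 of the 50 genes exceeded 1000 CPM, led by Mir92-1 at 6531 and 6282 CPM (named after its values were seen). At 100 CPM or more in both libraries stood 26% of the class. The share was 19.5% of genes with no shared arm and 6.45% of those with every arm shared.

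Of the 835 genes with no shared arm, 237 were detected, with a median of 346 ± 22 CPM (SD, n = 2), and Mir26b ranked 14 among them. These medians cover detected genes, and over all listed genes the order turned round. With 1 shared arm the median of all 50 genes was 38.6 CPM in replicate 1 and 32.7 CPM in replicate 2, against 0.677 and 0.578 CPM for the 835 genes with none. Detection ran the same way, at 62% of genes with 1 shared arm and 28.4% of genes with none. With classes drawn by a shared 20-nt stretch of hairpin, neither the median over all listed genes nor detection was higher where a stretch was shared. All 20 of the most abundant genes belonged to the class with no shared arm, which itself held 835 of the 916 genes classed. Where every arm was shared, 24 of 31 genes had no sense count and 4 were detected, with a median of 173 ± 19 CPM that rests on those 4 genes. These are counts and medians over genes, without a test.

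**Figure D3:**
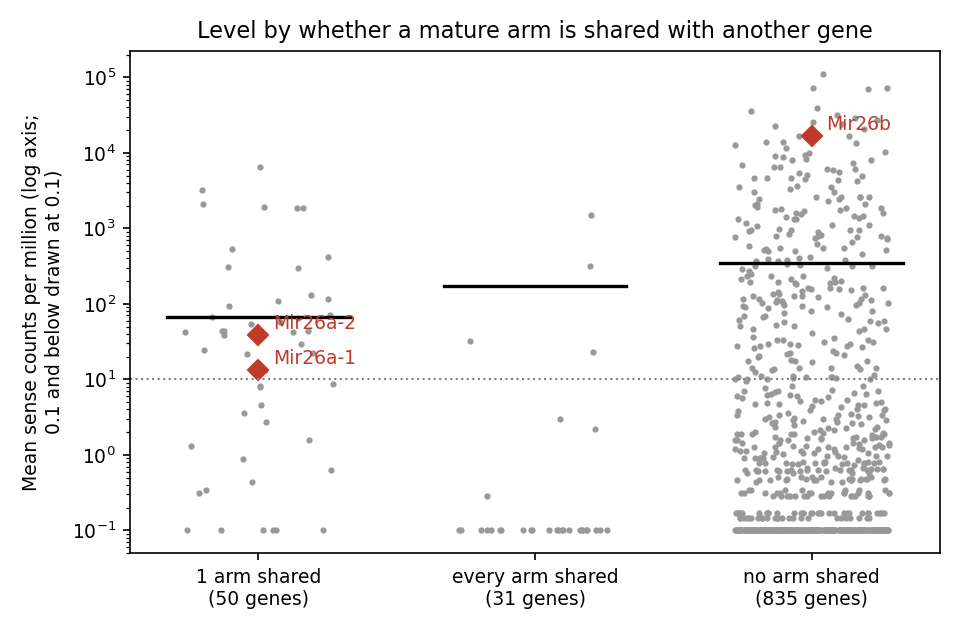
Mean sense CPM over the 2 libraries, on a log axis, for the 916 listed genes with a mature arm in RefSeq, grouped by whether an arm is identical to an arm of another listed gene; values of 0.1 and below are drawn at 0.1. Bars give the median of genes detected at 10 CPM (dotted line) in both libraries, 66.6 for 1 shared arm and 346 for none. Over all listed genes the medians stand in the other order, at 38.6 and 32.7 in the 2 libraries for 1 shared arm, against 0.677 and 0.578 for none; diamonds mark the Mir26 genes.

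The genes nearest to each member in mean level, 2 above and 2 below, give its place among listed genes by assigned counts over the 2 libraries. For the Mir26a copies this place is not that of mature miR-26a-5p, whose reads fit both hairpins. Above Mir26b came Mir23b, at 22861 ± 552 CPM, and Mir30e, at 20379 ± 280 CPM (SD, n = 2, as for the levels that follow). Below it came Mir10a, which lies in a Hox cluster, at 16461 ± 530 CPM, and Mir93, of the Mir106b cluster, at 13801 ± 315 CPM. Mir10a and Mir26b overlapped and changed places between the libraries, whereas the values of Mir23b, Mir30e and Mir93 did not overlap those of Mir26b. Above Mir26a-2 were Mir138-1 at 41.9 ± 0.8 CPM and Mir153 at 40.9 ± 11.6 CPM, and below it were Mir221 at 36.1 ± 4.0 CPM and Mir449a at 34.9 ± 5.7 CPM. Only Mir138-1 of these had library values that did not overlap those of Mir26a-2, although their Wilson intervals overlapped in both libraries. Above Mir26a-1 were Mir19b-2 at 13.6 ± 0.9 CPM and Mir1197 at 13.5 ± 1.4 CPM. Below it were Mir7j at 13.2 ± 1.8 CPM and Mir592 at 12.3 ± 0.3 CPM. The library values of Mir592 alone, from 37 and 42 counts, did not overlap those of Mir26a-1. Overlap here compares the values of the 2 libraries, without their counting error. At 38 and 48 counts, the exact rank of Mir26a-1 is within counting error.

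Other miRNAs known to repress Ezh2 had genes with a wide range of assigned counts in the same libraries. They are miR-101 and miR-138, known for this in human cells, and miR-214, known for it in mouse muscle cells. Mir214 had 40112 and 38032 CPM in replicates 1 and 2, above Mir26b. Mir101b had 2593 and 2608 CPM, below Mir26b and above both Mir26a genes. Mir101a had 105 and 97.1 CPM. Of the copies, Mir138-1 had 41.3 and 42.5 CPM, and its Wilson intervals overlapped those of Mir26a-2 in both libraries. Mir138-2 had 63.7 and 66.5 CPM, above Mir26a-2 with intervals that did not overlap in either library. Both Mir138 genes belong to the class with 1 shared arm. As for the Mir26a genes, their counts set no level for the mature miRNA of that arm. In the test between libraries described next, 1 of these 5 genes passed, a share near the 21.3% of all genes tested. It was Mir214, with a log2 ratio of −0.09. Ezh2 itself was not measured by this assay.

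The libraries were compared gene by gene to ask whether the members varied beyond counting error. Each of 422 genes had its pair of counts set against the library sizes, scaled by TMM, in an exact binomial test (two-sided), with Benjamini-Hochberg adjustment over all 422. The test sets 1 library against the other and compares no conditions. Of the 3 members, 1 passed, against 21.3% of all genes tested. It was Mir26b, lower in replicate 2, as were 11.8% of the genes tested. Its log2 ratio, replicate 2 over replicate 1, was −0.06 with a counting error of 0.009 (exact binomial test, adjusted p = 5.06e-12). The difference was small: at a mean of 100 CPM or more, the median gene differed by 0.083 log2 units, and 40.8% of the 201 such genes differed by less than Mir26b.

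Mir26a-2 had a log2 ratio of −0.08 with a counting error of 0.18 (exact binomial test, adjusted p = 0.89), and Mir26a-1 one of 0.09 with a counting error of 0.31 (exact binomial test, adjusted p = 0.95). Differences of that size were not detectable at their depth. Among the comparison families, Mir30c-2 passed with the largest difference, a log2 ratio of −0.88 at 111 and 71 counts (exact binomial test, adjusted p = 0.00039). Mir107, Mir30d and Mir30e passed too, with log2 ratios of −0.08, 0.06 and −0.04. The other comparison genes tested did not pass, and over all genes tested 21.3% passed. The ratio of Mir30e to the copies therefore rested partly on genes that differed between the libraries, Mir30e and Mir30c-2.

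**Figure D4:**
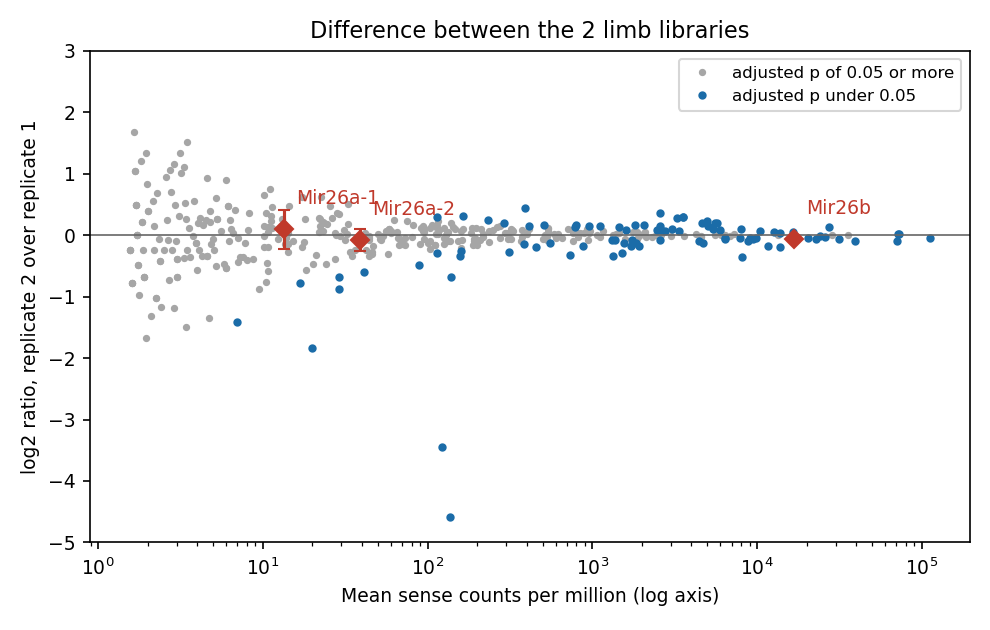
Log2 ratio of replicate 2 over replicate 1 against mean sense CPM (log axis) for the 422 genes tested. Blue points passed the exact binomial test at an adjusted p under 0.05, and diamonds with bars of 1 counting error mark the Mir26 genes at −0.06 (Mir26b), −0.08 (Mir26a-2) and 0.09 (Mir26a-1).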

How the data were processed

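The authors deposited raw read counts per miRNA gene, not normalized, in 1 file per library. Per the notes deposited with the samples, genes were counted on assembly mm10 with annotation M4 of GENCODE. How reads were aligned and counted, and how strand and multiple matches were handled, is not given in the sources used. The files have no header. Their second count column held nearly all counts and was read as the sense strand. Symbols, loci and hairpin stretches were taken from GENCODE M21 (assembly mm10) (1894 of 1973 identifiers matched; the rest held 4 sense counts), and mature arms from RefSeq, matched by symbol for 916 genes.

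CPM used all sense counts, and lines for unassigned reads stayed out. Log2 ratios added 0.5 counts. TMM factors (edgeR 4.0.16, R 4.3.3) came from genes with 10 or more summed counts, the genes tested; edgeR's quasi-likelihood test needs a contrast between groups, and there is 1 group. The test was checked on counts simulated with counting error alone, so that check does not cover spread beyond it. Python 3.11.15 with scipy 1.17.1 did the rest. Squared deviations between the libraries were 19.0 times those from counting error by their mean and 2.64 times by their median, so the libraries differed beyond counting error.

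The members, the comparison families and the lists were chosen with earlier results of these data known. Genes named are the members, the families, the Ezh2 list, markers of cell types and, for each member, the 2 genes next above and the 2 next below in mean level. Mir92-1 was chosen after its values were seen. Alternatives covered the denominator, the strand column, the pseudocount, each library alone, scaling (total counts, DESeq2 1.42.0), the filter, an overdispersed test, the detection level and the definition of a shared arm.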

Additional observations from a re-analysis of the deposited data

Results flagged for a closer look

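Signal lay outside the gene counts used here: the line for reads with several matches held 1644176 reads in replicate 1 and 1738400 in replicate 2, whereas a line at 0 would allow up to 3. For each count of Mir26b there were 32.7 such reads in replicate 1 and 30.6 in replicate 2. The files do not record which genes these reads fit, so how many come from miR-26a-5p was not tested.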

How the results depend on the processing

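The 4 ratios within the Mir26 family, and those of Mir107, Mir29a, Mir30e, Mir30a, Mir30b and Mir30d to the copies, kept their direction and moved by less than 1 SD between libraries with a pseudocount of 1 count, with none and with both strands summed; for the last 3 genes this was added after seeing the data. In either library alone each kept its direction; the Mir29a ratio was 3.97 log2 units in replicate 1 and 5.34 in replicate 2. The Mir26 share of 1.68% became 0.763% with all reads in the file as the denominator. The median of detected genes depended on the detection level: at 1 CPM it was 86.9 CPM for genes with no shared arm, 49.6 CPM with 1 shared arm and 27.9 CPM with every arm shared, and at 100 CPM it was 1085, 534 and 914 CPM. The order of the last 2 classes thus turned round at 1 CPM, and over all listed genes that of the first 2 did. With classes drawn by a shared 20-nt stretch of hairpin, detected genes that share one had a median of 108.6 CPM, against 332 CPM for the rest. By that definition the order did not turn round over all listed genes. The median of the 907 sharing genes was 0 CPM in both libraries, against 0.339 and 0.289 CPM in replicates 1 and 2 for the other 987. Detection was 6.95% and 23.5%, in the same order. The test between libraries called 40 genes higher and 50 lower in replicate 2; the overdispersed form, with squared deviations scaled by their median, called 21 and 27. Mir26b passed and both Mir26a genes did not under all 6 alternatives of that test, TMM factors over all listed genes included, a setting added after seeing the data; the adjusted p of Mir26b ranged between 1.09e-12 and 0.00011. No paired analysis was possible because the series holds 1 group. The test needs both libraries, so neither could be left out of it. Among the members Mir26a-1 had the fewest counts, 38 and 48; each Mir29b copy had at most 2.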
